A study of Homo sapiens with 5 samples.

Results

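The BCL2 family sets the threshold for mitochondrial apoptosis, and Rb occupancy at 10 of its genes was described in the oestrogen receptor-positive breast cancer cell line ZR-75-1. The genes were taken by name from the 19970 genes annotated as protein-coding on the 22 autosomes and X, and were placed in 3 classes. BCL2, BCL2L1 and MCL1 are anti-apoptotic, BAX and BAK1 are the pore-forming effectors, and BID, BIK, BCL2L11, BBC3 and PMAIP1 are BH3-only genes. Parental cells were treated for 4 days with either abemaciclib (500 nM), which inhibits CDK4 and CDK6, or the solvent DMSO. CUT&RUN was performed with an Rb antibody in 2 replicates per treatment, so that a nuclease tethered to the antibody released the DNA fragments that Rb occupied. An IgG2a antibody on DMSO-treated cells gave 1 negative-control library. According to the study, the replicates were independent biological cultures with separate profiling reactions. All values concern binding, and expression of these genes was not analysed here.

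In healthy and malignant cells alike, BH3-only proteins relay stress signals by engaging the anti-apoptotic proteins or the effectors directly. Once released or activated, BAX and BAK1 permeabilize the outer mitochondrial membrane, and cytochrome c then assembles the apoptosome. Rb is the retinoblastoma protein, which binds E2F factors at promoters when it is not phosphorylated by cyclin-dependent kinases, and several apoptosis genes are textbook E2F targets.

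The sequences of the promoters at the extremes of the family are shown first, since the occupancy values below refer to them. PMAIP1, which encodes the BH3-only protein NOXA, had the strongest peak, and BAK1 had none. Each line gives the 250 bases before the gene's RefSeq start on the gene's own strand (GRCh38.p14), with GC boxes (GGGCGG) and the core of NFY sites (CCAAT), each on either strand, in capitals. The PMAIP1 stretch is chr18:59899746-59899995 on the plus strand and lies inside the peak of all 4 Rb libraries, and all 4 summits fall within it. The BAK1 stretch is chr6:33580277-33580526 on the minus strand.
PMAIP1: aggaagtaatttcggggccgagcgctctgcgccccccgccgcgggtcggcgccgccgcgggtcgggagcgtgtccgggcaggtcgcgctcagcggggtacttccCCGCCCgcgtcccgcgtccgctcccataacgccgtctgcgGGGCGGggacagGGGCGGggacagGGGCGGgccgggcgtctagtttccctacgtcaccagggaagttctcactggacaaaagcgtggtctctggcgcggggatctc
BAK1: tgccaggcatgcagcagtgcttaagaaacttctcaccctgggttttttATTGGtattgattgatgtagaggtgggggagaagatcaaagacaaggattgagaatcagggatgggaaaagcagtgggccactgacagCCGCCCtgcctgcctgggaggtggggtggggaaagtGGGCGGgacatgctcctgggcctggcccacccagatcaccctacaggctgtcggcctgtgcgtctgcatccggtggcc
The PMAIP1 stretch holds 4 GC boxes, of which the last 3 follow each other closely, and the BAK1 stretch holds 2. With the 50 bases after the start included, the PMAIP1 promoter had a GC content of 71.3% and a CpG observed-over-expected ratio of 1.11, whereas BAK1 had 58.7% and 0.282. Over 22199 promoter windows of protein-coding genes of the same length the medians were 62.3% and 0.737. Neither window held a match to an E2F site (TTCCCGC, its variant TTCGCGC, the form TTGCCGC and its variant TTGGCGC, each on either strand), which 16.1% of all windows held.

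Rb peaks were called at more of these promoters in each abemaciclib library than in either DMSO library. A promoter spanned 2000 bp upstream to 500 bp downstream of any annotated transcription start site (TSS) of the gene. In DMSO, 2 of the 10 genes had a promoter peak in replicate 1, where 7.86% of all protein-coding genes did, and 2 had one in replicate 2, where 12.4% did. With abemaciclib, 9 genes had a promoter peak in replicate 1, against 58.0% of all protein-coding genes, and 8 in replicate 2, against 53.9%. The mean number was 8.5 ± 0.707 with abemaciclib and 2 ± 0 with DMSO (SD, n = 2 each), and the groups did not overlap. The exact permutation test over libraries, two-sided, gave p = 0.33, the smallest p that 2 libraries against 2 allow. No gene had a peak in the IgG2a library.

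The lists differed greatly in length, and this touches every count of genes with a peak. The DMSO lists held 1438 peaks (replicate 1) and 2582 peaks (replicate 2), the abemaciclib lists 13960 and 12234, and the IgG2a list 589. With every list cut down to its 1438 strongest peaks, the difference between the treatments fell from 6.5 genes to 0.5 genes: PMAIP1 and BCL2L1 were then the genes with a promoter peak in both abemaciclib libraries, and no gene was gained. The shares of all protein-coding genes given here belong to the full lists, so the counts after the cut have no share beside them. The depth behind the lists was read from them. The genome background, the lowest local coverage that the peak caller used, was 0.649 and 0.677 fragments in the DMSO libraries and 0.656 and 0.521 fragments in the abemaciclib libraries. At that background a peak needed at least 6 fragments at its summit in either DMSO library, 9.24 and 8.86 times the background. It needed at least 5 in either abemaciclib library, 7.62 and 9.59 times the background. A gene without a DMSO peak can therefore carry Rb below that limit, and more where the local background is higher.

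In both abemaciclib libraries a promoter peak was found at 8 of the 10 genes, against 52.7% of all protein-coding genes. Peaks of the 4 Rb libraries that touched were joined into regions. A region found with both abemaciclib replicates but with neither DMSO replicate is called gained, and one found in all 4 libraries shared. Gained promoter regions were present at 6 genes (BCL2, MCL1, BAX, BID, BCL2L11 and BBC3), against 40.1% of all protein-coding genes. Shared promoter regions were present at 2 genes (BCL2L1 and PMAIP1), against 6.49%. BIK had a promoter peak in abemaciclib replicate 1 alone, and BAK1 had none in any library. At a q-value of at most 1e-05, BCL2L1 no longer had DMSO peaks and counted as gained, and BAX and MCL1 were no longer gained. The shares of all protein-coding genes above do not apply at this q-value. The same q-value asked for a smaller p-value in the shorter DMSO lists. The BCL2L1 peak of DMSO replicate 2 had a −log10 p of 7.17 and a −log10 q of 3.28. For the BAX peak of abemaciclib replicate 2 these were 7.07 and 4.39. None of the 12 promoter regions of the family touched the promoter of another protein-coding gene in abemaciclib replicate 1, although 3 touched the promoter window of a non-coding gene.

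**Figure D1:**
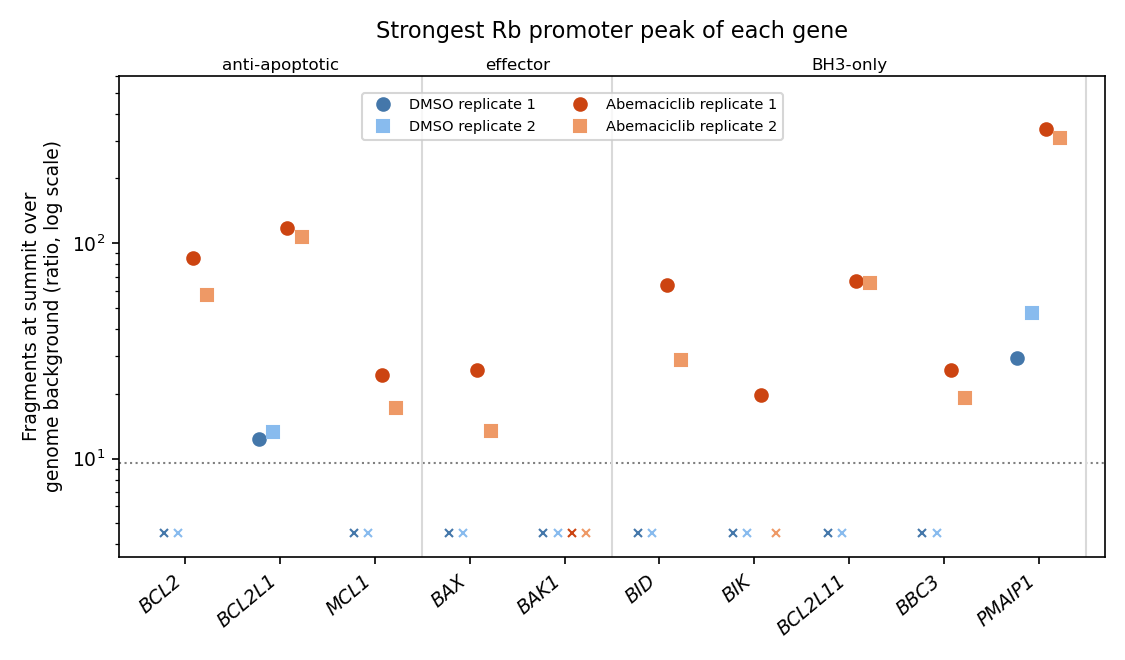
Summit level of the strongest Rb promoter peak of each gene (fragments at the summit over the genome background of the library, log axis) in the 4 Rb libraries, by class. Crosses at the bottom mark libraries without a peak, and the dotted line is the highest of the 4 calling limits at genome background, 9.59. PMAIP1 sits above all other genes in both treatments, and PMAIP1 and BCL2L1 are the genes with points in DMSO.

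Among the anti-apoptotic genes, BCL2L1 had peaks in both treatments, and BCL2 and MCL1 had peaks called with abemaciclib alone. BCL2L1 encodes BCL-XL, which sequesters BH3-only proteins and effectors. Its shared region was chr20:31723070-31724018, 949 bp long. The fold enrichment over local background was 4.75 and 5.14 in the DMSO replicates and 40.5 and 32.9 in the abemaciclib replicates. The summits held 8 and 9 fragments with DMSO and 77 and 56 with abemaciclib. Divided by the genome background to allow for depth, the summit level was 12.8 ± 0.691 with DMSO and 112 ± 7.06 with abemaciclib (SD, n = 2 each), a ratio of 8.78. The groups did not overlap (exact permutation test, two-sided, p = 0.33, the smallest possible). Unscaled fragments gave a ratio of 7.82 and the fold over local background 7.43. Over the 1281 protein-coding genes with a promoter peak in all 4 libraries, the median ratio was 7.35. Of these genes, 26.5% had a higher ratio than BCL2L1.

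Rb at BCL2L1 lay at an upstream start rather than at the canonical one, and which start these cells use was not analysed. The 4 summits were 68 to 159 bp downstream of the nearest annotated TSS, but 933 to 1024 bp upstream of the canonical TSS (31722868, minus strand), within the 5′ UTR or first intron of longer transcripts. The peaks ended 202 bp or more short of the canonical TSS in the abemaciclib libraries and 847 bp or more short of it in the DMSO libraries. The DMSO peaks were 186 and 233 bp wide and the abemaciclib peaks 933 and 863 bp. The upstream start is shown because it carries an E2F match, in capitals, centred 1094 bp upstream of the canonical TSS (chr20:31723947-31723976, GRCh38, minus strand).
BCL2L1 upstream start: gctcgcgcgcgTTGCCGCggcaccggaagt
This was the only E2F match in the 13 RefSeq promoter windows that were held for 8 of the 10 genes. It lay near the outer edge of the abemaciclib peaks and outside the 200 bp around the summit of abemaciclib replicate 1. Both DMSO peaks, whose outer edges were at 31723925 and 31723947, ended before this match.

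BCL2, the founding member, which encodes a protein targeted by BH3-mimetic drugs, had a gained region at chr18:63319476-63321149. Fold enrichment was 25.1 and 15.5 in abemaciclib replicates 1 and 2, with −log10 p of 71.2 and 34.3. The summits held 56 and 30 fragments, ranked 2281 of 13960 and 3659 of 12234, and lay 121 and 194 bp upstream of the outermost TSS. The peaks were 1601 and 1592 bp wide and reached 220 and 293 bp into the canonical transcript. The 100 bases around the summit of replicate 1 (chr18:63320199-63320298, GRCh38, minus strand) are shown with motif matches in capitals, since they hold 2 GC boxes and the only cell cycle homology region (CHR, TTTGAA) match at a promoter summit of the family.
BCL2 summit: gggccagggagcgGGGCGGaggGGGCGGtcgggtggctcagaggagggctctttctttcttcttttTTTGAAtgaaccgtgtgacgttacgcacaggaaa
CHR matches were present in 3.77% of 11183 such 200-bp windows at promoter peaks of that library.

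A weaker second BCL2 peak lay in the coding exon at chr18:63318279-63318563, within the promoter window of a downstream TSS. It was present in abemaciclib replicate 1 alone, with a fold of 4.93, 8 fragments and rank 11937, 85.5% of the way down the list. Its window held the only match to an oestrogen response element (at most 1 mismatch) at any promoter summit of the family, a motif found in 0.286% of the 11183 windows. The 30 bases around it are shown with the match in capitals (chr18:63318370-63318399, GRCh38, minus strand). The match is centred 1384 bp downstream of the canonical TSS.
BCL2 coding exon: ccacctgtGGTCCACCTGACCctccgccag

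MCL1, a short-lived anti-apoptotic protein that binds NOXA and BIM, had weak Rb at its promoter and stronger Rb farther down. The promoter region chr1:150579197-150580122 was gained, with folds of 5.68 and 5.38 and summits of 16 and 9 fragments. It ranked 9820 and 10096 in the abemaciclib lists. The replicate 1 peak also holds the TSS of the non-coding gene ENSG00000290074, and the replicate 2 peak touches its promoter window. The promoter region thus cannot be assigned to MCL1 alone. The gained region chr1:150568042-150568724 lay 11278 and 11236 bp downstream of the canonical TSS and had folds of 17.7 and 14.0 with 36 and 25 fragments, more than the promoter in either replicate. A further gained region at chr1:150560861-150561900 had folds of 9.35 and 10.6 with 27 and 26 fragments. Both of these lie beyond the end of the canonical transcript (150574558) and within longer annotated transcripts. The stronger region touches the promoter window of the non-coding RNA gene RN7SL473P. The other holds the TSS of the non-coding gene ENSG00000289457 and touches the promoter window of ADAMTSL4-AS1, so that neither can be assigned to MCL1 alone. A small peak in the canonical 3′ UTR was seen in abemaciclib replicate 2 alone, with 7 fragments.

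The stronger MCL1 gene-body site was lower in GC content and CpG ratio than the family's promoter peaks. Its 200-bp summit window had a GC content of 52% and a CpG observed-over-expected ratio of 0.148, against medians of 69% and 0.847 at promoter peaks of the library. This site also lay below the lowest of the family's promoter windows, 55.5% at the MCL1 promoter and 0.238 at a BBC3 promoter peak. It is shown because it holds an E2F match, TTCCCGC, that overlaps a GC box (chr1:150568282-150568381, GRCh38, minus strand, matches in capitals).
MCL1 intron: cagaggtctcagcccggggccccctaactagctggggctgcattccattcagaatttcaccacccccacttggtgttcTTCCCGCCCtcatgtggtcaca

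Of the effectors, BAX had weak Rb peaks and BAK1 had none. BAX, which inserts into the outer mitochondrial membrane, carried a gained region at chr19:48954705-48955282. Its folds were 10.9 and 5.26, with 17 and 7 fragments, and it ranked 7103 of 13960 and 10278 of 12234. The peaks were 570 and 209 bp wide, with summits 104 bp downstream and 11 bp upstream of the canonical TSS. The peak of replicate 2 was thus 2 fragments above the fewest, 5, that could be called. BAK1, the other effector, had no peak in its promoters or gene body in any of the 5 libraries, although its gene is 7747 bp long with 2 annotated TSSs. Its level was below the calling limit of each library, which does not show that Rb was absent.

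Among the BH3-only genes, levels ran from that of PMAIP1, the highest of the family, to that of BIK, which had a peak in 1 library. PMAIP1 had the shared region chr18:59899265-59901017, 1753 bp long, around the canonical TSS. The fold over local background was 11.6 and 19.2 in the DMSO replicates and 131 and 103 in the abemaciclib replicates. The −log10 p was 21.5 and 42.0 with DMSO and 462 and 329 with abemaciclib. These placed it at ranks 146 of 1438 and 65 of 2582 in DMSO, and at 30 of 13960 and 55 of 12234 with abemaciclib. PMAIP1 was therefore among the strongest Rb peaks with DMSO as well as with abemaciclib.

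The PMAIP1 summits held 19 and 32 fragments with DMSO and 222 and 161 with abemaciclib. Over genome background the level was 38.3 ± 12.7 with DMSO and 324 ± 21.0 with abemaciclib (SD, n = 2 each), a ratio of 8.46 that became 11.1 when DMSO replicate 2 was left out. The groups did not overlap (exact permutation test, two-sided, p = 0.33, the smallest possible). All 4 summits lay 163 to 242 bp upstream of the TSS, in the first part of the sequence printed above. The peaks were 834 and 742 bp wide with DMSO and 1683 and 1740 bp wide with abemaciclib. Across the 1281 protein-coding genes with a promoter peak in all 4 libraries, the median ratio of abemaciclib to DMSO was 7.35 (quartiles 6.01 and 8.94). Of these genes, 31.4% had a higher ratio than PMAIP1 and 26.5% a higher ratio than BCL2L1, so that both lay within the usual range.

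BCL2L11, which encodes BIM, a BH3-only protein able to bind all anti-apoptotic members, came next among the BH3-only genes. Its main gained region, chr2:111120262-111123348, was 3087 bp long. Folds at the strongest summit were 27.2 and 23.0, with 44 and 34 fragments, and the summit lay at the same base in both replicates, 263 bp upstream of the canonical TSS. In replicate 1 it was 1 peak, and in replicate 2 it was split, with a second summit of 18 fragments 1996 bp downstream of the TSS. A second gained region at chr2:111116931-111117994 lay 3142 and 3201 bp upstream of the canonical TSS, with folds of 7.85 and 7.89 and 12 and 11 fragments. It also touches the promoter window of ACOXL-AS1. This upstream region held the only E2F match at a promoter summit of the family (chr2:111117813-111117842, GRCh38, plus strand, match in capitals).
BCL2L11 upstream: ctaacgggtgtgGCGGGAAgtgtggtggcc

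BID, which links death receptors to mitochondria after cleavage by caspase-8, had a gained region at chr22:17773474-17774689 in which the replicates differed. The fold was 17.2 in replicate 1 and 5.43 in replicate 2, and the summits held 42 and 15 fragments. The ranks were 3719 of 13960 and 9116 of 12234. The local background there was 1.49 and 1.95 fragments, above the genome background. BIK, a BH3-only protein of the endoplasmic reticulum, had its peak at chr22:43110291-43111417 in replicate 1 with 13 fragments, a fold of 8.46 and rank 8535. No BIK peak was called in replicate 2.

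BBC3, which encodes PUMA, a p53 target able to engage all anti-apoptotic members, had weak peaks spread over several kb. The region chr19:47230459-47231519 had folds of 6.02 and 4.60 with 17 and 6 fragments. It covered the canonical TSS in replicate 1 alone, with a summit 81 bp downstream. The peak of replicate 2 lay 418 to 740 bp downstream of that TSS, with its summit at 655 bp. A second promoter region within the gene, chr19:47227235-47228765, had folds of 6.52 and 7.23 with 12 and 10 fragments at its strongest summits. A gene-body region at chr19:47225855-47226389 had folds of 11.0 and 10.1 with 21 and 17 fragments, more than either promoter region in either replicate. All 3 regions were gained. The latter pair touches the promoter windows of the microRNA genes MIR3190 and MIR3191, or of MIR3190 alone, which lie within BBC3. The upstream RefSeq start of BBC3 (chr19:47232618-47232917) carried no peak in any library, and had a GC content of 48% and a CpG ratio of 0.311.

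**Figure D2:**
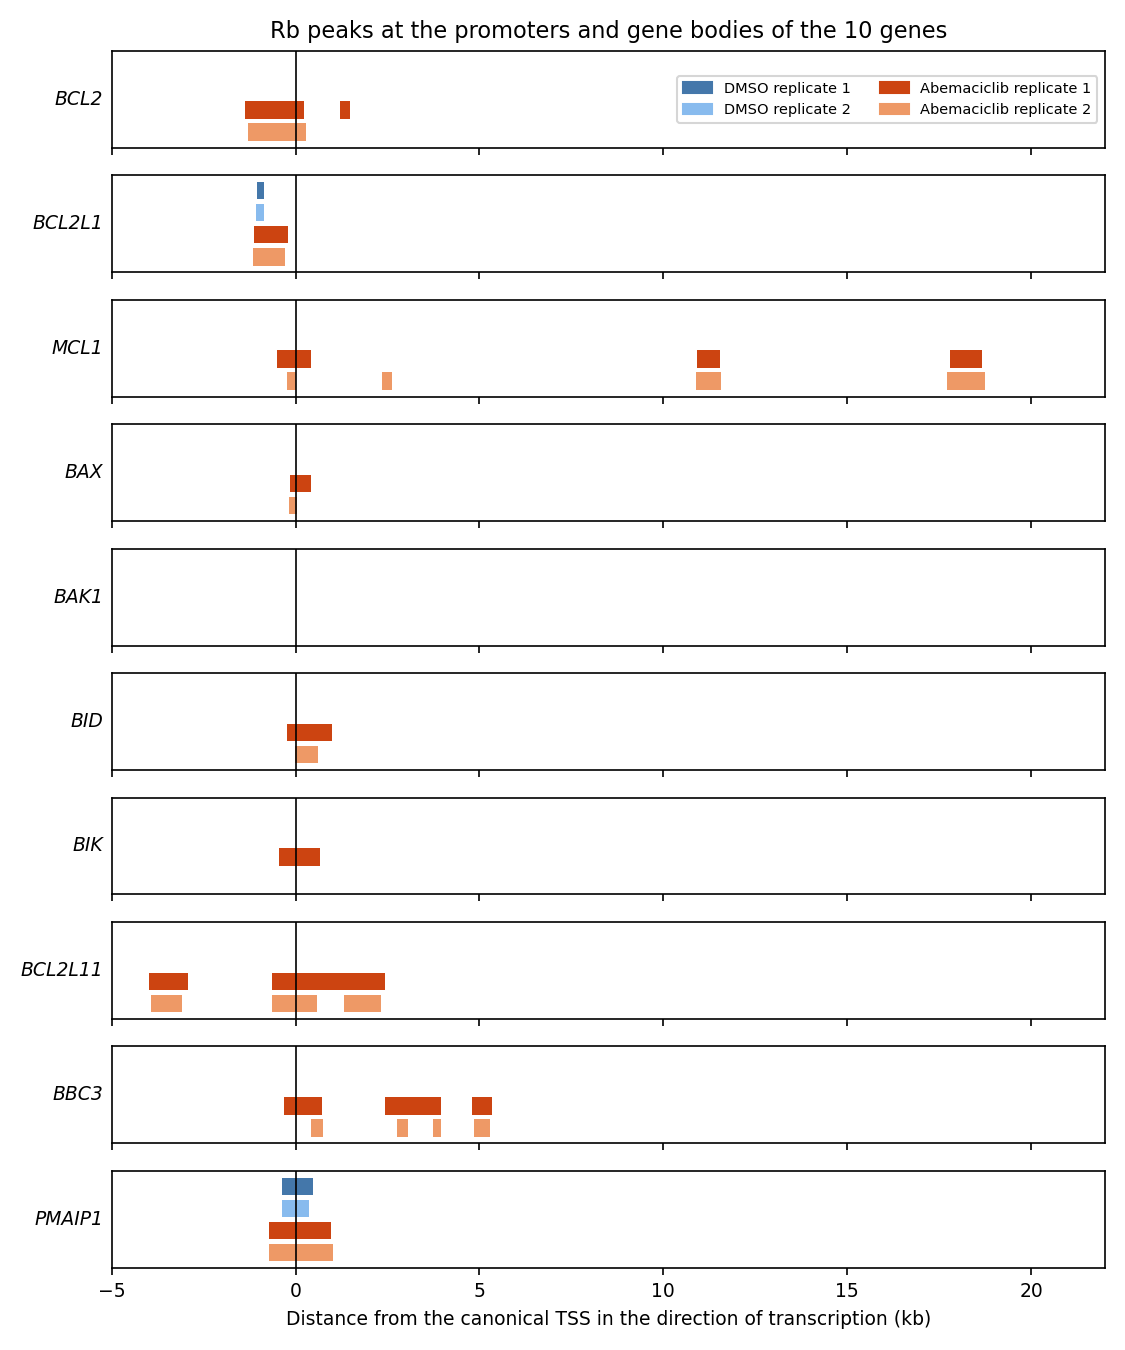
Rb peaks at the promoters and gene bodies of the 10 genes as bars at their distance from the canonical TSS (kb, positive in the direction of transcription), coloured by library. The vertical line is the canonical TSS. PMAIP1 and BCL2L1 carry bars in all 4 libraries, BAK1 carries none, and the stronger MCL1 peaks lie far downstream of it.

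Gene-body peaks outside the promoters were found at 2 genes, MCL1 and BBC3, in both abemaciclib libraries and at none in either DMSO library. Over all protein-coding genes, 5.64% had such a peak in both abemaciclib libraries. The difference between treatments was 2 genes (exact permutation test, two-sided, p = 0.33, the smallest possible), and it depended on the promoter definition: it was 1 gene with promoters of 5000 bp upstream to 1000 bp downstream and 3 genes with canonical TSSs alone.

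The 3 classes were then set side by side. In both abemaciclib libraries, 3 of 3 anti-apoptotic genes, 1 of 2 effectors and 4 of 5 BH3-only genes had a promoter peak. Over all protein-coding genes the share was 52.7%. With DMSO, 1 of 3, 0 of 2 and 1 of 5 had a peak in each replicate. Over all protein-coding genes, 7.86% had a promoter peak in DMSO replicate 1 and 12.4% in DMSO replicate 2. These are counts of a few genes, which are not replicates of a class, and they were not tested. The order by level crossed the classes, with a BH3-only gene first, followed by anti-apoptotic genes. The mean summit level of the strongest promoter peak over genome background with abemaciclib was 324 ± 21.0 at PMAIP1, 112 ± 7.06 at BCL2L1, 71.5 ± 19.7 at BCL2, 66.2 ± 1.32 at BCL2L11 and 46.4 ± 24.9 at BID (SD, n = 2 each). It was 22.6 ± 4.77 at BBC3, 20.8 ± 5.04 at MCL1 and 19.7 ± 8.83 at BAX. PMAIP1 exceeded BCL2L1, and BCL2L1 exceeded BCL2, by more than the spread between replicates. BCL2 and BCL2L11 overlapped, as did BBC3, MCL1 and BAX. BCL2L11 (65.2 and 67.1) lay above BID (28.8 and 64.0), and BID above BBC3 (19.2 and 25.9), without overlap, but by less than the SD of BID. The BBC3 value joins different regions, the one at the canonical TSS in replicate 1 and the one within the gene in replicate 2. Followed across both replicates, these regions had levels of 18.7 ± 10.2 and 18.7 ± 0.626, which would place BBC3 after BAX.

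Against all genes the family was not uniformly high. The median level of the 8 genes was 56.3, and that of the 10516 protein-coding genes with a promoter peak in both abemaciclib libraries was 43.8 (quartiles 26.6 and 78.4). PMAIP1 was exceeded by 71 of those genes, or 0.675%, and BCL2L1 by 13.3%. BCL2, BCL2L11 and BID were exceeded by 28.6%, 31.8% and 47.3%. BBC3, MCL1 and BAX lay below the lower quartile, with 82.0%, 85.3% and 87.5% of genes above them.

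**Figure D3:**
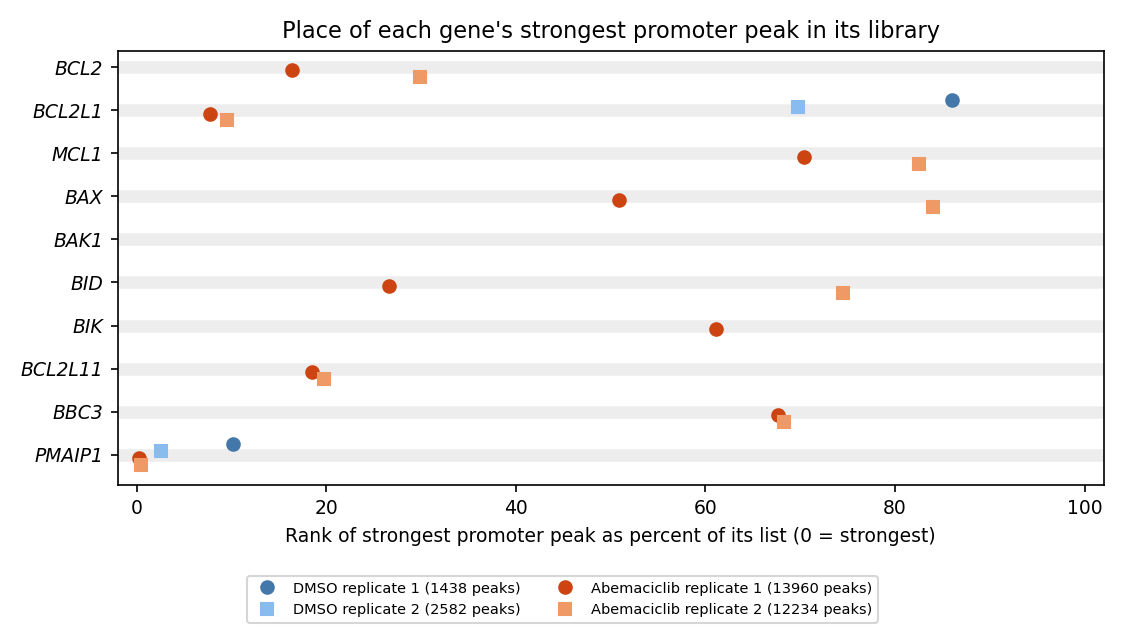
Rank of the strongest promoter peak of each gene as a percent of the peaks in its list (0 is the strongest peak), for the 4 Rb libraries. The lists differ in length, so percents are not comparable between treatments: BCL2L1 stands at 86.0% and 69.8% of the DMSO lists (ranks 1237 and 1802) and at 7.76% and 9.50% of the longer abemaciclib lists (ranks 1083 and 1162). PMAIP1 is within the top 10.2% of every list.

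The genes whose ranks were most like those of the leading gene of each class were found among genes with peaks in the same libraries. For PMAIP1 they were AP2A1, MTMR4 and SGCE, whose ranks in the 4 libraries differed from it by at most 0.585, 0.737 and 0.774 on the log2 scale, out of 1280 candidates. For BCL2L1 they were PJA2, ZNF324 and MPPE1, at 0.167, 0.190 and 0.211. For BAX, MEIS1, RC3H2 and TOMM22 had equal ranks in both abemaciclib libraries, out of 7758 candidates, since peaks with so few fragments share the same p-values.

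The motif content of the family's promoter peaks was set beside that of all promoter peaks. In the 200-bp windows around their summits in abemaciclib replicate 1, an E2F match was found at 1 of 12 peaks, and 17.5% of all 11183 promoter-peak windows of that library held one. With 400-bp windows it was 2 of 12 against 34.9%. GC boxes were found at BCL2, MCL1, BAX, BID, BIK, BBC3 and PMAIP1, and in 60.2% of all windows, and NFY matches at the upstream BCL2L11 peak, against 18.8%. Of the 13 RefSeq promoter windows, those of BAK1 and BBC3 had the lowest CpG ratios and were the windows without a peak in any library. Matches describe the printed letters and not bound factors.

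Rb occupancy was also described at 58 other genes of the apoptosis pathway, in 6 lists. A promoter peak was present in both abemaciclib libraries at 45 of them (77.6%), against the 52.7% of all protein-coding genes given above. Gained promoter regions were present at 34 (58.6%, against 40.1%) and shared regions at 7 (12.1%, against 6.49%). No promoter of these genes had an IgG2a peak.

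All 13 genes of the apoptosome and caspase list had a promoter peak in both abemaciclib libraries, against 52.7% of all protein-coding genes. These 13 include CYCS (cytochrome c), APAF1 (the apoptosome scaffold) and the initiator CASP9. HTRA2, a mitochondrial protease, had a shared region, and APAF1, CASP2, DIABLO and ENDOG had a DMSO peak in replicate 2 alone. The HTRA2 level over genome background was 12.3 and 20.7 with DMSO and 122 and 136 with abemaciclib. The HTRA2 peak also touches the promoter of AUP1, that of APAF1 the promoter of IKBIP, and that of CASP9 the promoter of DNAJC16.

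Among 13 other BCL2 family genes, 9 (69.2%) had a promoter peak in both abemaciclib libraries and 3 (23.1%) had shared regions. Over all protein-coding genes the shares were 52.7% and 6.49%. The genes with shared regions were BCL2L2 (BCL-W, anti-apoptotic), BCL2L12 and BNIP3L (a mitophagy receptor). BMF and BCL2L13 had a DMSO peak in replicate 2 alone. BCL2L2 ranked 134 and 179 in the abemaciclib lists, with levels of 255 and 217. Its peaks also touch the promoters of HOMEZ, PPP1R3E and the read-through gene BCL2L2-PABPN1, the BCL2L12 peak touches that of IRF3, and the BCL2L13 peak that of ATP6V1E1. BCL2A1, BCL2L10, BCL2L14 and BCL2L15 had no Rb promoter peak.

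In the extrinsic arm, 6 of 12 death receptor genes (50%) had a promoter peak in both abemaciclib libraries, near the 52.7% of all protein-coding genes. TRADD, an adaptor, was the 1 gene with a shared region (8.33% of the list, against 6.49%). That region also touches the promoter of FBXL8. FAS, its ligand FASLG, TNFSF10 (TRAIL), CASP8 and CASP10 had no Rb promoter peak, and TNFRSF10B had one in abemaciclib replicate 1 alone. Of 7 IAP family genes, which inhibit caspases or act in mitosis, XIAP, BIRC2, BIRC5 and BIRC6 had gained regions. This was 57.1% of the list, against 40.1% of all protein-coding genes. BIRC3, BIRC7 and NAIP had no peak, and NAIP has near-identical copies nearby at which reads may not map uniquely. The difference between these lists was not tested.

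All 6 genes of the mitochondrial channel and regulator list (VDAC1, VDAC2, VDAC3, HUWE1, USP9X and FBXW7) and all 7 of the p53 list had a promoter peak in both abemaciclib libraries. Over all protein-coding genes the share was 52.7%. HUWE1, USP9X and FBXW7 control turnover of MCL1. FBXW7 and MDM2, the p53 ubiquitin ligase, had a DMSO peak in replicate 2 alone, and PPP1R13L (iASPP, a p53 inhibitor) had a shared region that also touches the promoter of POLR1G. The PPP1R13L level was 29.3 and 19.2 with DMSO and 152 and 190 with abemaciclib.

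**Figure D4:**
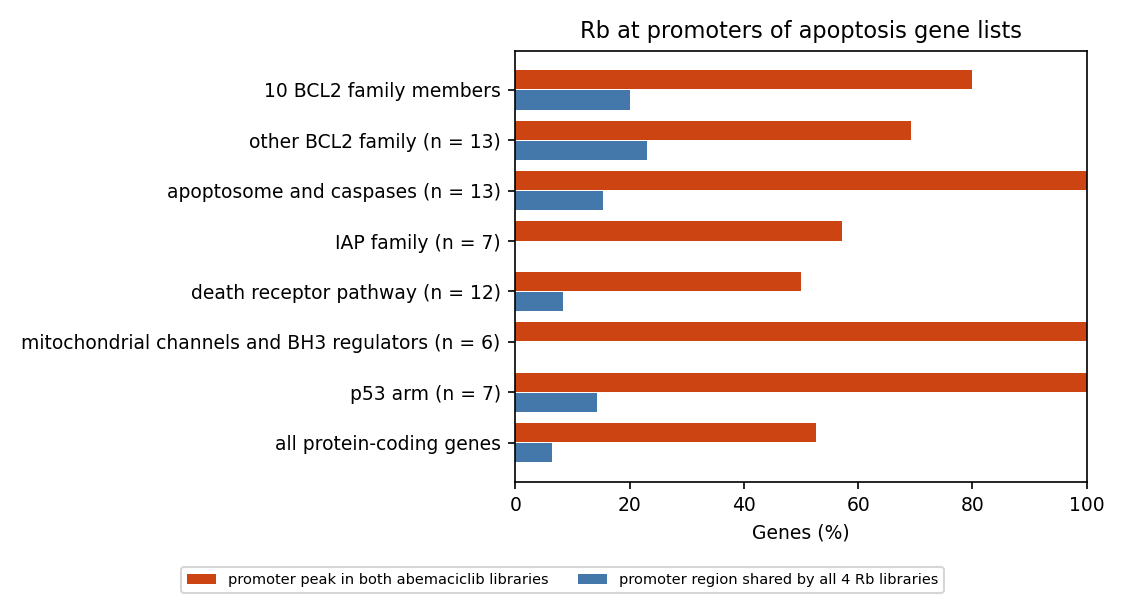
Percent of genes with an Rb promoter peak in both abemaciclib libraries (upper bars) and with a promoter region shared by all 4 Rb libraries (lower bars), for the 10 genes, the 6 further apoptosis lists and all protein-coding genes. The 3 lists at 100% are the apoptosome and caspase, mitochondrial channel and p53 lists, and the death receptor list is nearest to the 52.7% of all protein-coding genes.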

How the data were processed

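Rb and IgG2a CUT&RUN libraries of ZR-75-1 cells were available as 5 narrowPeak lists, 1 per library. The authors aligned paired-end reads to GRCh38 with Bowtie2 (version 2.3.4.1) and called peaks per library with MACS2 (version 2.2.7.1) at a q-value of 0.05, and IgG libraries served as controls of the Rb libraries. The deposited columns are the fold (a ratio, pileup plus 1 over local background plus 1), the −log10 p-value and −log10 q-value, an integer display score and the summit offset. Folds and ranks hold within a library.

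From the fold and p-value, whole-number summit pileups were solved (within 0.01 fragments for at least 99.8% of the peaks with −log10 p of at most 40 in each library, and tested on simulated data). Pileups were divided by the lowest background, taken as the genome average, which is an assumption. Peaks were assigned with GENCODE 44 TSSs at an overlap of 1 bp, using pandas 2.3.3, scipy 1.17.1 and pysam 0.24.0. Promoter sequences came from RefSeq (GRCh38.p14). Peak lists hold no counts over common regions, so the count model of the study was not run. With 2 libraries per group, exact permutation tests cannot go below p = 0.33. The genes and lists were chosen with earlier results of these data known. All 10 genes are named, as are the further genes with a DMSO peak or with no Rb promoter peak, except for 1 gene that is not reported here. Alternatives covered q-value, list length, overlap, window, TSSs, IgG2a removal, single libraries, scaling, replicate block and motif window.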

Additional observations from a re-analysis of the deposited data

How the results depend on the processing

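The 8 results were recomputed under 70 alternatives. Of these, 58 were counted as the same, 12 as moved and 0 as reversed. Same did not mean identical: gained genes were 5 at q of at most 1e-05, against 6 as reported. With the 1438 strongest peaks per list, the difference in genes with a promoter peak was 0.5, gained genes were 0, shared genes 1 and the gene-body difference 0. At q of at most 1e-05, 1 gene was shared (PMAIP1). Shares of all protein-coding genes are given for the lists as reported and not for these alternatives. The gene-body difference was 1 with 5000/1000-bp promoters and 3 with canonical TSSs. Alternatives added after seeing the data gave BCL2L1 ratios of 7.82 (unscaled) and 7.43 (fold), and PMAIP1 ratios of 7.51 (unscaled) and 7.59 (fold). E2F matches were at 2 peaks with 400-bp windows. Leaving out each library gave promoter differences of 6 to 7, gained genes 6 to 7, shared genes 2, gene-body differences of 2, PMAIP1 ratios of 6.85 to 11.1 (11.1 without DMSO replicate 2) and BCL2L1 ratios of 8.39 to 9.17. With 1 added to pileup and background in the p-value, as few as 1.23% of a library's peaks gave whole pileups, so that form was not used. With the replicate number as a block (replicate block, also added after seeing the data), the promoter difference was 6.5 (7 and 6 within numbers), the gene-body difference 2, the PMAIP1 ratio 9.05 and the BCL2L1 ratio 8.81; an exact sign-flip test over 2 pairs cannot go below p = 0.5. Deviations of same-numbered libraries had r = -0.0866 across 1281 genes. With 2 libraries per group, this cannot decide whether same-numbered libraries were handled together. The calling limit bounds what a missing peak means: no DMSO peak was called with fewer than 6 fragments at its summit.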
